A study of Mus musculus with 8 samples.

Results

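MHC class I molecules show peptides from inside a cell to CD8 T cells. The 10 genes of this pathway followed here, on 8 arrays of graft T cells, were the light chain B2m, the heavy chains H2-K1, H2-D1 and H2-T23, the peptide transporter Tap1 and Tap2, the loading factor Tapbp, the immunoproteasome subunits Psmb8 and Psmb9, and Nlrc5, which drives transcription of class I genes. Every probe set whose annotation named exactly 1 gene, and that gene a member, was taken. This gave 27 probe sets of 9 genes among 21218 probe sets (18820 genes) with 1 gene symbol. Of the 27, Nlrc5 held 19 and each of the other 8 genes held 1. H2-D1 had no probe set of its own, and 6 class I probe sets that name several genes are given apart, under all their symbols.

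The RNA came from CD3+ T cells isolated at day 30 from grafts of tissue derived from human embryonic stem cells (hESC), placed in wild-type CD1 mice, an outbred stock. In the rejecting group (4 arrays) the host was untreated. In the tolerant group (4 arrays) the host had received antibodies against CD4, CD8 and CD40L. All 8 samples therefore share the host stock, the kind of graft, the day and the CD3+ isolation, and they differ in the antibody injections and in the labelled fate of the graft. The age of the mice, the class I alleles of these outbred hosts and whether each sample came from a separate mouse are not given in the labels, so the p-values given here speak of the spread among these arrays, part of which may be technical. Values are log2 RMA values, and a difference is tolerant minus rejecting on that log2 scale. The arrays numbered 1 and 2 and those numbered 3 and 4 were also compared apart, because they stood apart over the whole table. A background line was set on each array at the 99th percentile of 1182 probe sets of olfactory and vomeronasal receptors. Of the probe sets with 1 symbol, 5.03% and 5.73% lay above it in rejecting 1 and 2, and 2.77% and 2.54% in tolerant 1 and 2. The shares were 15.1% and 10.7% in rejecting 3 and 4, and 17.1% in both tolerant 3 and tolerant 4. The tolerant shares were thus the lower on the arrays numbered 1 and 2 and the higher on those numbered 3 and 4. Whether this bears on the differences of the members was not tested.

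In a class I molecule the polymorphic heavy chain folds with B2m, the invariant light chain, around a short peptide. The proteasome cuts the peptides, and interferon-gamma replaces its constitutive catalytic subunits by Psmb8, Psmb9 and Psmb10. The peptides enter the endoplasmic reticulum through Tap1 and Tap2, where Tapbp (tapasin), calreticulin (Calr) and Pdia3 help to load them. Nearly all nucleated cells make class I, T cells among them, and interferons raise the whole pathway, in large part through Nlrc5, which acts at a conserved promoter module of class I genes known as the SXY module.

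The bases before the start of 5 members are shown first, because class I genes are known to be controlled together through elements in this region. Not every window held each element. RefSeq (GRCm38.p6) gave promoter windows for 8 of the 10 members, and Tap2 and Nlrc5 had none. Each line gives the 250 bases before the start, 5′ to 3′ along the gene. Capitals mark matches, on either strand, of the X2 box core (TGACG), the Y box (CCAAT), the interferon-stimulated response element (GAAA, any 2 bases, GAAA) and the NF-kappaB consensus. Where the strand of the match is opposite, the Y box reads ATTGG.
B2m, chr2:122147437-122147686, plus strand: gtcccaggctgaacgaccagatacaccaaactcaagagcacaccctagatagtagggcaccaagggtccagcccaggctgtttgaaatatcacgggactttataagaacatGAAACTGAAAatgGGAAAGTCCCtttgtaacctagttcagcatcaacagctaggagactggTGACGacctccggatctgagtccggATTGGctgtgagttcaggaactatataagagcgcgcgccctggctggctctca
H2-K1, chr17:34000348-34000597, minus strand: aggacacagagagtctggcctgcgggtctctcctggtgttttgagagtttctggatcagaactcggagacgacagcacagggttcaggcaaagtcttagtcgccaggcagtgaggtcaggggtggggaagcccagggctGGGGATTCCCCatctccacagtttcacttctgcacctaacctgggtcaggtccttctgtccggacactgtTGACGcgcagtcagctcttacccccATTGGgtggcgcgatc
H2-D1, chr17:35262844-35263093, plus strand: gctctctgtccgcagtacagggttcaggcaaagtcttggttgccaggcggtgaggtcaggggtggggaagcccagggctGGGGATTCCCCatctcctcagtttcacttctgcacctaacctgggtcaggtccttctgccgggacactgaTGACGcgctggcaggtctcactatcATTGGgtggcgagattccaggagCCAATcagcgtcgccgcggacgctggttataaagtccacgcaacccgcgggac
H2-T23, chr17:36032702-36032951, minus strand: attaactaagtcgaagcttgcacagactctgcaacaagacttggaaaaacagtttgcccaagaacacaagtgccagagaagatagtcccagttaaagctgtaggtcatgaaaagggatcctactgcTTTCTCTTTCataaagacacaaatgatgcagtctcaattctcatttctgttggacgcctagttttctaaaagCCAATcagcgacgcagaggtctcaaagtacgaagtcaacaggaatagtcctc
Tap1, chr17:34187306-34187555, plus strand: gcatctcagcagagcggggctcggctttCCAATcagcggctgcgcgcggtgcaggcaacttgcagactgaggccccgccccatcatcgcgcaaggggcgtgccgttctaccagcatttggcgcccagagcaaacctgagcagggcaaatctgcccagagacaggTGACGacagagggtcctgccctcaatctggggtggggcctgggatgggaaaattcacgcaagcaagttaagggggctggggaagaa

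In B2m, TGACG stood 78 to 74 bases before the start, and ATTGG 53 to 49 bases before it. The same letters stood at 41 to 37 and 16 to 12 bases in H2-K1, and at 101 to 97 and 76 to 72 bases in H2-D1. In each of these 3 windows exactly 20 bases lay between TGACG and ATTGG. Over all 32851 RefSeq windows of the same length, 30 (0.0913%), from 26 genes, held the letters with this spacing, among them the window of H2-M3, another class I gene. The spacing was looked for after these windows had been read, so its share is a description. TGACG alone lay in 17.8% of all windows, CCAAT in 33.8% and both in 6.12%. The interferon-stimulated response element lay in 2.98% of all windows, and among the members in B2m (139 to 130 bases before the start) and, on the opposite strand, in H2-T23 (124 to 115 bases). The NF-kappaB consensus lay in 7.25% of all windows and in B2m (126 to 117 bases), H2-K1 (111 to 101 bases) and H2-D1 (171 to 161 bases), and at H2-K1 and H2-D1 it overlapped itself on both strands. In Tap1, TGACG stood 86 to 82 bases before the start and CCAAT 222 to 218 bases before it, and the window of H2-T23 held no TGACG. H2-K1 had a further window, not shown, from another start, with TGACG at 55 to 51 bases and ATTGG at 30 to 26 bases. Distances thus depend on the start taken. Tap1 and Psmb9 run away from each other on opposite strands, and their windows share 225 bases, so a match in one can be a match in the other. The window of Psmb8 held none of the 4 motifs, and that of Tapbp held only the Y box. A match here is a match of letters, and no binding was measured. Each motif was searched as fixed letters and spacing. A window without a match, such as those of H2-K1 and H2-D1 for the interferon-stimulated response element, can therefore hold a variant of the element.

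No member probe set passed the test in any comparison. Counts of members in this paragraph are counts of probe sets, and 19 of the 27 were of Nlrc5. In the comparison of all 8 arrays, limma called 0 of 27 member probe sets, beside 0 of all 21218 (0%), with a threshold of 0.05 on the Benjamini-Hochberg adjusted p. With the same threshold on the unadjusted p, it gave 0 members and 613 of all probe sets (2.89%). Tolerant values were the higher in 18 of the 27 (50.1% of all probe sets), and no member separated the groups completely, which 2.22% of all probe sets did. Among the arrays numbered 3 and 4, 0 members were called, beside 11 of all probe sets (0.0518%), while 5 members and 1529 of all probe sets (7.21%) had an unadjusted p under 0.05. The tolerant mean was the higher in 18 of the 27 here too (48.2% of all probe sets). In both comparisons these were 12 of the 19 probe sets of Nlrc5 and 6 of the 8 others. In 11 member probe sets the order was complete, with both tolerant arrays above both rejecting arrays, beside 19.3% of all probe sets. They were those of B2m, H2-K1, H2-T23, Tapbp and Tap2, and the rest were of Nlrc5. In 2 member probe sets (Psmb8 and Nlrc5 10574153) both lay below, beside 20% of all. Among the arrays numbered 1 and 2, 0 members and 0 of all probe sets (0%) were called, with 1 member and 1093 of all probe sets (5.15%) at an unadjusted p under 0.05. There 4 members lay higher without overlap (17.2% of all) and 4 lower (17.1% of all). The interaction term, which tests whether the difference itself differs between the array sets, called 0 members and 12 of all probe sets (0.0566%), with 3 members and 1513 of all (7.13%) at an unadjusted p under 0.05. With 1 value per gene (for Nlrc5, the median of its probe sets), the median difference of the 9 genes was 0.16 over 8 arrays, 0.19 on the arrays numbered 3 and 4 and 0.03 on those numbered 1 and 2. Over all probe sets the medians were 0.000358, -0.00667 and -0.00276.

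**Figure D1:**
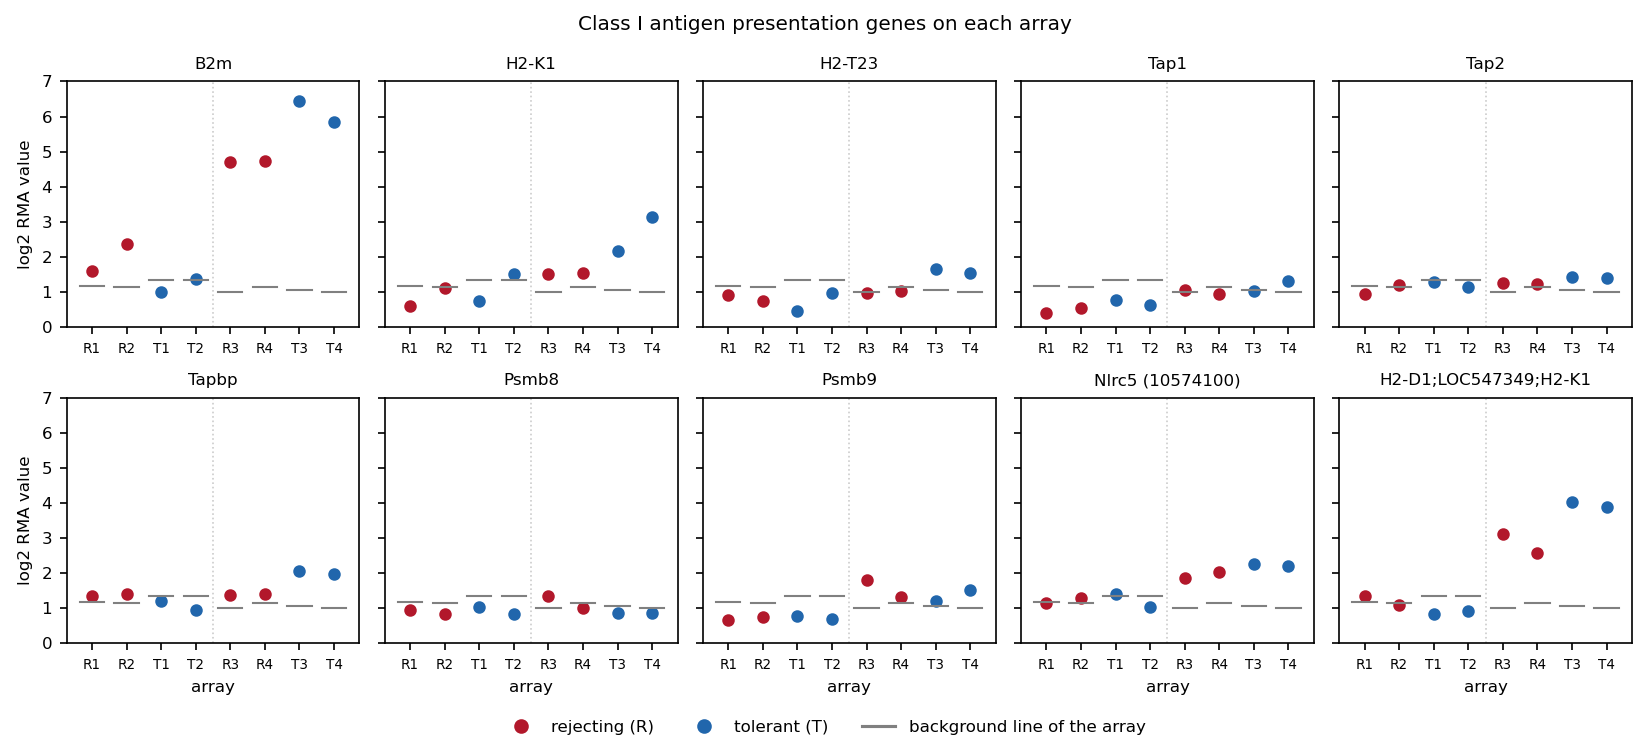
Log2 RMA value (y axis) of 9 members and of the probe set annotated H2-D1;LOC547349;H2-K1 on each of the 8 arrays (x axis; R rejecting, T tolerant, numbered as labelled); each point is 1 array, each grey bar that array's background line, and the dotted line divides the array sets. B2m reads 0.98 to 2.35 on the arrays numbered 1 and 2 and 4.69 to 6.44 on those numbered 3 and 4, where both tolerant arrays lie above both rejecting ones.

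B2m, the light chain that every class I molecule needs, had the widest range of the members over the arrays. It read 4.69 in rejecting 3, 4.75 in rejecting 4, 6.44 in tolerant 3 and 5.85 in tolerant 4. Both tolerant arrays of this set lay above both rejecting arrays, and the rejecting arrays lay close together. The difference was 1.43 ± 0.20 (SE, limma, n = 2 and 2; 95% interval 0.92 to 1.94), with an unadjusted p of 0.00063 and a limma adjusted p of 0.184. On the other set it read 1.60 in rejecting 1, 2.35 in rejecting 2, 0.98 in tolerant 1 and 1.37 in tolerant 2. There the order was turned, with both tolerant arrays below both rejecting arrays, at a difference of -0.80 ± 0.26 (limma adjusted p = 0.936). The interaction of treatment and array set for B2m was 2.22 ± 0.38, with an unadjusted p of 0.000232 and a limma adjusted p of 0.123, the lowest among the members. Over 8 arrays the difference was 0.31 ± 1.33 (limma adjusted p = 1), and it changed sign when rejecting 1, rejecting 2, tolerant 3 or tolerant 4 was left out. The mean of B2m was 1.58 over the arrays numbered 1 and 2 and 5.43 over those numbered 3 and 4, a description for which no test was made.

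H2-K1, a classical heavy chain, read 1.50 in rejecting 3, 1.53 in rejecting 4, 2.16 in tolerant 3 and 3.14 in tolerant 4. The rejecting arrays nearly coincided, and both tolerant arrays lay above them but apart from each other. The difference was 1.13 ± 0.31 (limma adjusted p = 0.516), and without tolerant 4 it was 0.64. Its values on the arrays numbered 1 and 2 were 0.60 and 1.12 in the rejecting and 0.75 and 1.51 in the tolerant group, which overlapped, with only tolerant 2 above its background line. Over 8 arrays the difference was 0.70 ± 0.45 (limma adjusted p = 1), and it was 0.29 without tolerant 4 and 1.08 without tolerant 1.

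H2-T23, the heavy chain of the non-classical molecule Qa-1, read 0.97 in rejecting 3, 1.02 in rejecting 4, 1.66 in tolerant 3 and 1.53 in tolerant 4. It lay above the background line on the 2 tolerant arrays of this set and on no other array. The difference was 0.60 ± 0.11 (limma adjusted p = 0.251). In the other set the values lay between 0.46 and 0.96 and the groups overlapped.

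Of the 6 class I probe sets that name several genes, 4 had both tolerant arrays above both rejecting arrays on the arrays numbered 3 and 4, and 2 had them below. Among the probe sets with 1 symbol the shares were 19.3% and 20%. These 6 were tested over all 35556 probe sets, so their adjusted p-values are not on the footing of the others. The probe set annotated H2-D1;LOC547349;H2-K1, which cannot tell the classical chains apart, read 3.11 in rejecting 3, 2.57 in rejecting 4, 4.03 in tolerant 3 and 3.89 in tolerant 4. Its difference was 1.12 ± 0.22 (limma adjusted p = 0.484). In the other set it read 1.35, 1.10, 0.82 and 0.91 in rejecting 1, rejecting 2, tolerant 1 and tolerant 2, with the tolerant values below the rejecting. H2-Q6;H2-Q7, of the non-classical Q region, read 3.02, 2.82, 3.80 and 3.69 in rejecting 3, rejecting 4, tolerant 3 and tolerant 4, a difference of 0.83 ± 0.13 (limma adjusted p = 0.385). On the other set it read 0.98 and 1.52 in the rejecting and 0.61 and 0.84 in the tolerant group. Both probe sets were above the line on 1 array only in that set, so this order is read from values mostly not above background, as is part of that of B2m, whose tolerant 1 lay below its line. H2-Q5;H2-Q4, which was the higher in the tolerant group in both sets (0.25 ± 0.18 on the arrays numbered 1 and 2), differed by 0.61 ± 0.16 (limma adjusted p = 0.607) and H2-T9;H2-T22;H2-T10 by 0.39 ± 0.18 (limma adjusted p = 0.777) on the arrays numbered 3 and 4. Gm8909;Gm10499;H2-Bl and H2-T9;H2-T10 were above the line on no array, and their differences were -0.16 and -0.18. The chains share long stretches of sequence, so signal can be split or shared between these probe sets.

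**Figure D2:**
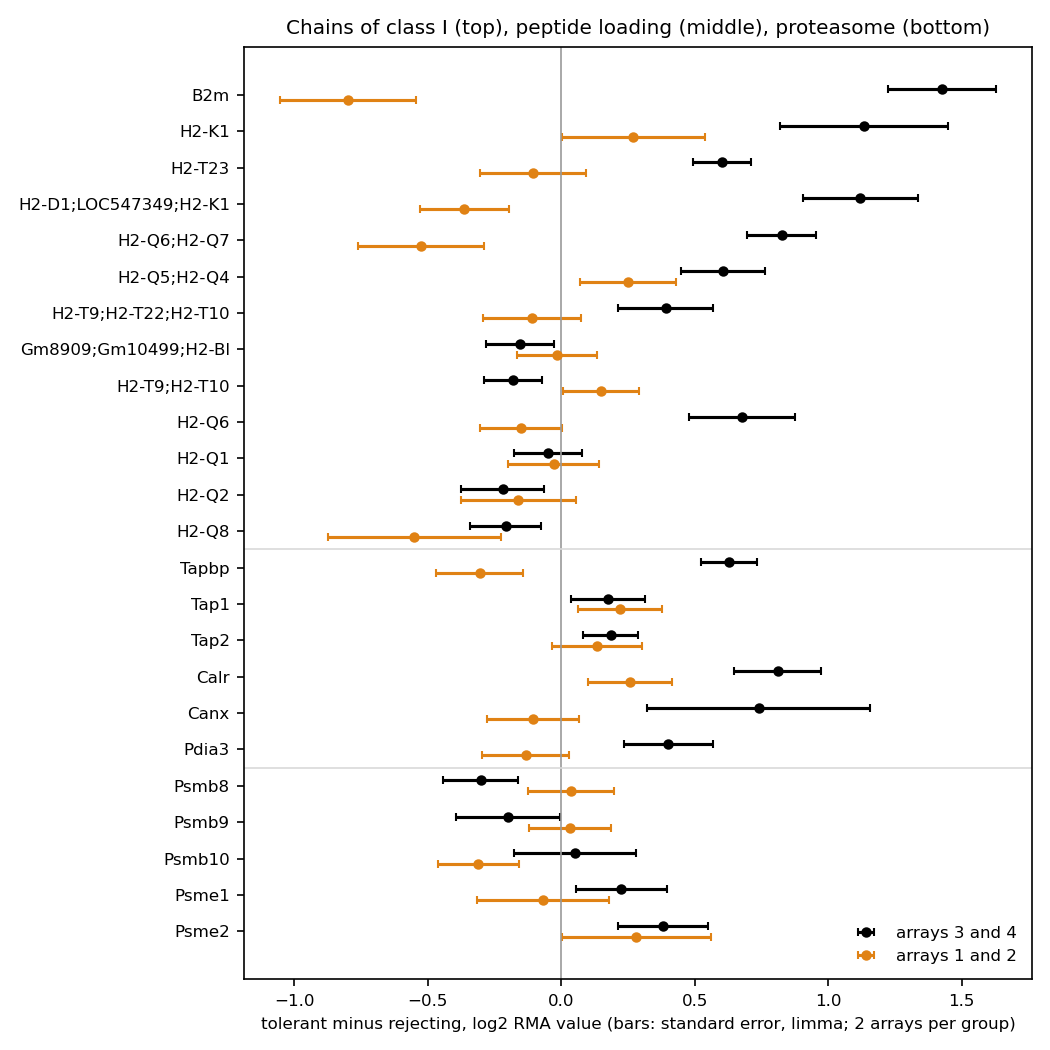
Tolerant minus rejecting difference in log2 RMA value (x axis) for the 3 members, the 6 probe sets of several genes and 4 other chains of the Q region above the line on at least 3 of the arrays numbered 3 and 4, then the loading factors and the proteasome genes (y axis), with standard errors from limma, for the arrays numbered 3 and 4 (black) and 1 and 2 (orange), 2 arrays per group in each. On the arrays numbered 3 and 4 the chains run from 1.43 (B2m) to -0.22 (H2-Q2), with 8 of 13 above 0, and of the immunoproteasome subunits Psmb8 and Psmb9 lie below 0 and Psmb10 at 0.05; nothing shown passed the test.

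Tapbp, the tapasin that bridges the transporter and the empty class I molecule, read 1.36 in rejecting 3, 1.40 in rejecting 4, 2.05 in tolerant 3 and 1.97 in tolerant 4. The arrays of each group lay close together, the groups did not overlap, and the difference was 0.63 ± 0.10 (limma adjusted p = 0.224). In the set numbered 1 and 2 it read 1.34, 1.41, 1.20 and 0.94 in rejecting 1, rejecting 2, tolerant 1 and tolerant 2. The tolerant values were the lower there, at -0.30 ± 0.16 (limma adjusted p = 0.936), as they were for B2m. Tolerant 1 and tolerant 2 lay below their background lines (1.33 and 1.35), so this order rests in part on values not above background, as does the interaction. The interaction for Tapbp was 0.93 ± 0.19 (limma adjusted p = 0.194), and over 8 arrays the difference was 0.16 ± 0.23 (limma adjusted p = 1), which a further quantile normalization took to 0.01.

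Tap1 and Tap2, the chains of the peptide transporter, showed smaller differences. Tap1 read 1.07 and 0.93 in rejecting 3 and 4 and 1.03 and 1.32 in tolerant 3 and 4, and the groups overlapped (0.17 ± 0.14, limma adjusted p = 0.806; 95% interval -0.17 to 0.52), and without tolerant 4 the difference was 0.03. It lay below the background line on all of the arrays numbered 1 and 2, at 0.41 to 0.77. Tap2 read 1.25 and 1.21 in rejecting 3 and 4 and 1.44 and 1.40 in tolerant 3 and 4. The groups did not overlap, by a narrow margin, and the difference was 0.19 ± 0.10 (limma adjusted p = 0.738). On the other set Tap2 lay between 0.93 and 1.28, and the groups overlapped.

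Neither immunoproteasome subunit among the members passed the test, and both had the lower mean in the tolerant group on the arrays numbered 3 and 4 and the higher mean on those numbered 1 and 2 (0.04 for Psmb8, 0.03 for Psmb9). Psmb8 read 1.34 and 1.01 in rejecting 3 and 4 and 0.87 in both tolerant 3 and tolerant 4, a difference of -0.30 ± 0.14 (limma adjusted p = 0.708), and without rejecting 3 it was -0.14. Only rejecting 3 lay above its background line, so the sign of this difference rests on values mostly not above background. Psmb9 read 1.79 and 1.32 in rejecting 3 and 4 and 1.21 and 1.50 in tolerant 3 and 4. The groups overlapped, the difference was -0.20 ± 0.20 (limma adjusted p = 0.836), and without rejecting 3 it was 0.04. All 4 values of Psmb9 on this set lay above the line and above all 4 of the other set, which ran from 0.66 to 0.78. On chromosome 17 Psmb9, Tap1, Psmb8 and Tap2 follow each other with no other coding gene between them in the RefSeq gene order. The 95% interval of Psmb8 on the arrays numbered 3 and 4, -0.66 to 0.05, overlapped that of Tap2, -0.07 to 0.44.

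Nlrc5, the transactivator of class I genes on chromosome 8, was read by 19 probe sets that differed among themselves. Of these, 3 were above the line throughout the set numbered 3 and 4, 6 were above it on 1 to 3 arrays, and 10 on none. Probe set 10574100 read 1.85, 2.03, 2.26 and 2.20 in rejecting 3, rejecting 4, tolerant 3 and tolerant 4, a difference of 0.29 ± 0.12 with no overlap (limma adjusted p = 0.688). Probe set 10574102, the one above the line on all 8 arrays, read 3.12, 2.83, 2.76 and 2.86 in the same order, and the groups overlapped (-0.16 ± 0.14, limma adjusted p = 0.82). Probe set 10574153 read 2.52, 1.94, 1.91 and 1.64, with the tolerant values the lower (-0.45 ± 0.22, limma adjusted p = 0.709). Without rejecting 3 these last differences were -0.01 at 10574102 and -0.17 at 10574153. The 3 differences do not share a sign, and none passed the test. The largest of the other differences on this set was 0.40 ± 0.11 at probe set 10574161 (limma adjusted p = 0.534), which read 0.84 and 0.67 in the rejecting and 1.15 and 1.17 in the tolerant group. In all, 12 of the 19 had the higher mean in the tolerant group on the arrays numbered 3 and 4, and 10 of 19 on those numbered 1 and 2. In the set numbered 1 and 2, probe set 10574102 read 1.57 and 2.48 in the rejecting and 2.06 and 2.54 in the tolerant group, and the other 18 lay between 0.02 and 1.71.

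**Figure D3:**
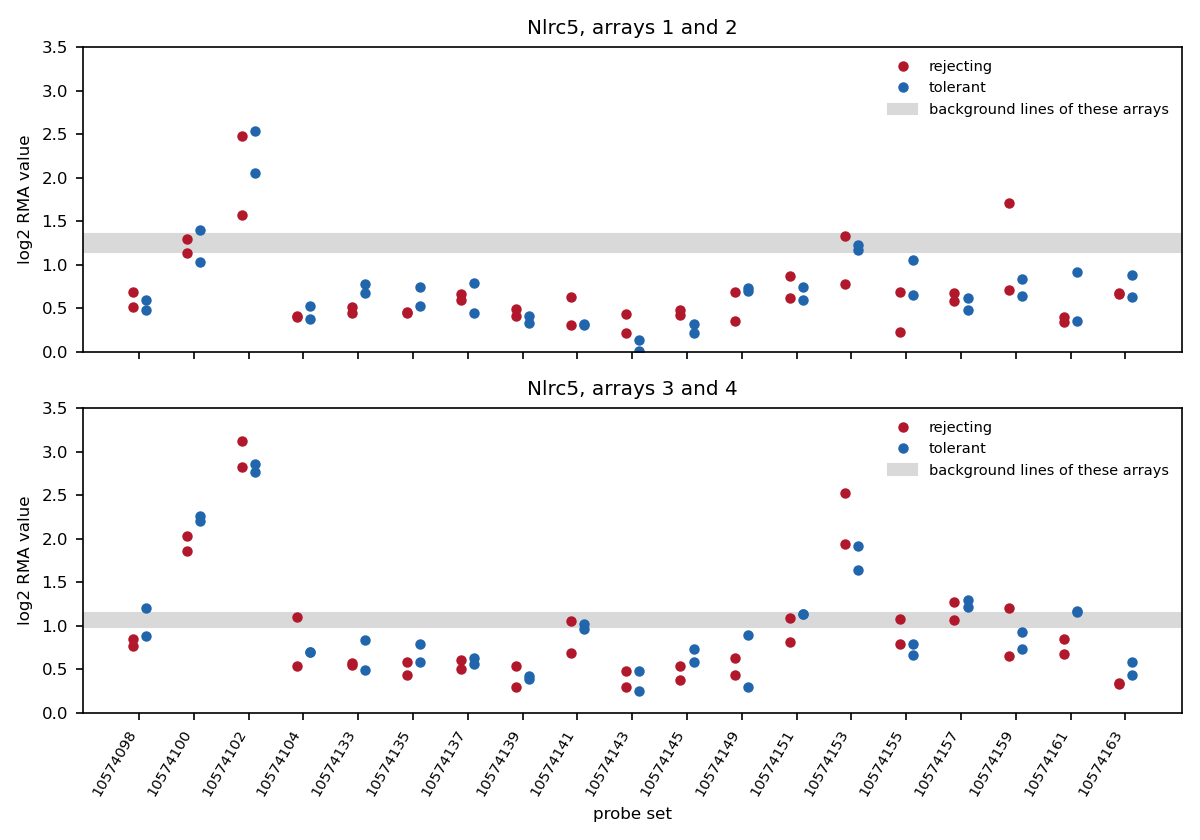
Log2 RMA value (y axis) of the 19 probe sets of Nlrc5 (x axis) on the arrays numbered 1 and 2 (top) and 3 and 4 (bottom); each point is 1 array (red rejecting, blue tolerant), and the grey band spans the background lines of the arrays shown. Only 10574100, 10574102 and 10574153 stand above the band on all 4 of the arrays numbered 3 and 4, and their groups are ordered differently.

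The means of the array sets are given over both groups, with no test. The mean was higher on the arrays numbered 3 and 4 for 23 of the 27 member probe sets, beside 53.2% of all probe sets. In 11 member probe sets all of these arrays lay above all of the other set, beside 2142 of all 21218. Within the set numbered 3 and 4, 8 member probe sets lay above the background line throughout (7.7% of all probe sets). They were those of B2m, H2-K1, Tapbp, Tap2 and Psmb9 and 3 of Nlrc5. Only 1 member probe set (Nlrc5, 10574102) did so on the arrays numbered 1 and 2. The labels say nothing of how the arrays numbered 1 and 2 and those numbered 3 and 4 differ, so no handling step can be named.

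The rest of the pathway was read through lists of known genes, with 1 probe set per gene, and no gene of these lists passed the test in any of the 3 comparisons of the groups. Of 34 other class I and class I-like heavy chains, 28 had a probe set of their own. Of the 28, 13 had the higher mean in the tolerant group on the arrays numbered 3 and 4 (7 without overlap, 4 lower without overlap), with a median of -0.03, beside a median of -0.00667 over all probe sets. Of all probe sets, 19.3% were higher and 20% lower without overlap on these arrays. The same shares stand beside the counts of the lists that follow. H2-Q6 read 1.08 and 0.52 in the rejecting and 1.47 and 1.48 in the tolerant group (0.68 ± 0.20, limma adjusted p = 0.547). H2-M10.1 (-0.58) and H2-M5 (-0.29) were above the line on no array. H2-Q8 (1.95 to 3.25) and H2-Q1 (1.37 to 1.85) were above the line on every one of the 8 arrays, and both had the lower mean in the tolerant group. On the arrays numbered 3 and 4, H2-Q8 read 2.54 and 2.43 in the rejecting and 2.14 and 2.41 in the tolerant group, lower without overlap (-0.21 ± 0.13, limma adjusted p = 0.772), and over 8 arrays it differed by -0.38 ± 0.22 (limma adjusted p = 1). H2-Q1 differed by -0.05 ± 0.13 and H2-Q2 by -0.22 ± 0.16 on the same set, with overlap. The chains other than the members thus lay on both sides of 0.

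Of the loading and trimming genes other than the members, 8 were measured and 6 had the higher mean in the tolerant group on the arrays numbered 3 and 4, 3 of them without overlap. Calr, the chaperone that holds the unfilled heavy chain, read 1.08 and 1.29 in rejecting 3 and 4 and 2.18 and 1.81 in tolerant 3 and 4 (0.81 ± 0.16, limma adjusted p = 0.313). Pdia3, the disulphide isomerase of the loading complex, read 0.52 and 0.93 against 1.06 and 1.20 (0.40 ± 0.17, limma adjusted p = 0.688). Only those 2 tolerant values lay above the line. Canx, the chaperone of newly made chains, read 0.70 and 1.95 against 2.31 and 1.83, with rejecting 4 inside the range of the tolerant arrays (0.74 ± 0.42, limma adjusted p = 0.741). Erap1, which trims peptides to length, lay above the line on no array.

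Among 8 other immunoproteasome and activator genes, 5 had the higher mean in the tolerant group on that set. Psmb10, the remaining interferon-induced catalytic subunit, lay above the line on 1 array, differed by 0.05 ± 0.23 and overlapped. Psme1 and Psme2, which form the proteasome activator PA28, differed by 0.23 ± 0.17 and 0.38 ± 0.17 (limma adjusted p = 0.794 and 0.702). Psme4 (0.21 ± 0.10) and Psmg1 (-0.27 ± 0.14) lay above the line on no array. Of the 3 constitutive catalytic subunits, Psmb5, the counterpart that Psmb8 replaces, read 1.31 and 0.97 in the rejecting and 1.95 and 1.87 in the tolerant group (0.77 ± 0.15, limma adjusted p = 0.272). Psmb7 and Psmb6 overlapped, at 0.21 and -0.17, and Psmb7 lay above the line on 1 array.

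Among 14 measured transcription factors that act on class I genes, 8 had the higher mean in the tolerant group (3 without overlap), and their median difference was 0.02. Rela, an NF-kappaB subunit, differed by 0.24 ± 0.12 (limma adjusted p = 0.713), while Irf1 (-0.08) and the class II transactivator Ciita (-0.21) lay above the line on no array. Relb (0.21) lay above it on no array and Nfya (0.31) on 1. Of 7 measured genes of interferon-gamma signalling, 5 had the higher mean in the tolerant group, 2 without overlap. Jak1, the kinase of the receptor, read 0.38 and 0.82 in rejecting 3 and 4 and 1.59 and 1.66 in tolerant 3 and 4 (1.02 ± 0.17, limma adjusted p = 0.224). It lay above the line on those 2 tolerant arrays only. Ifngr1, a chain of the receptor itself, lay above the line on 1 array and differed by 0.34 ± 0.15. Socs1, an inhibitor of this signalling, differed by 0.15 ± 0.19 with overlap. Of 9 measured receptors that bind class I, Cd8b1, the beta chain of the CD8 co-receptor, read 1.37 and 1.25 in the rejecting and 1.66 and 1.48 in the tolerant group (0.26 ± 0.12, limma adjusted p = 0.702). Pirb (0.43) and Klrc2 (-0.34) lay above the line on no array.

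Class II genes are made by professional antigen-presenting cells, and 6 of the 9 measured had the higher mean in the tolerant group on the arrays numbered 3 and 4, 2 of them without overlap and 1 lower without overlap. Cd74, the invariant chain, read 4.71 in rejecting 3, 1.93 in rejecting 4, 4.67 in tolerant 3 and 4.67 in tolerant 4. Rejecting 4 stood alone and the other 3 arrays lay together, so the groups overlapped (1.35 ± 0.85, limma adjusted p = 0.772). H2-Ab1 read 3.24, 1.51, 3.12 and 2.88 in the same order, and H2-Eb1 read 2.75, 0.97, 3.13 and 2.05, each with rejecting 4 the lowest. B2m read 4.69 and 4.75 on the same rejecting arrays. H2-Aa differed by 0.67 ± 0.30 (limma adjusted p = 0.702) without overlap, with rejecting 3 at 1.35 and tolerant 3 at 1.37. Ctss, above the line on 1 array, differed by 0.42 ± 0.19, also without overlap. H2-Oa was the lower in the tolerant group without overlap (-0.50 ± 0.19, limma adjusted p = 0.652), and it lay above the line on 1 array. No difference between class I and class II genes was tested.

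**Figure D4:**
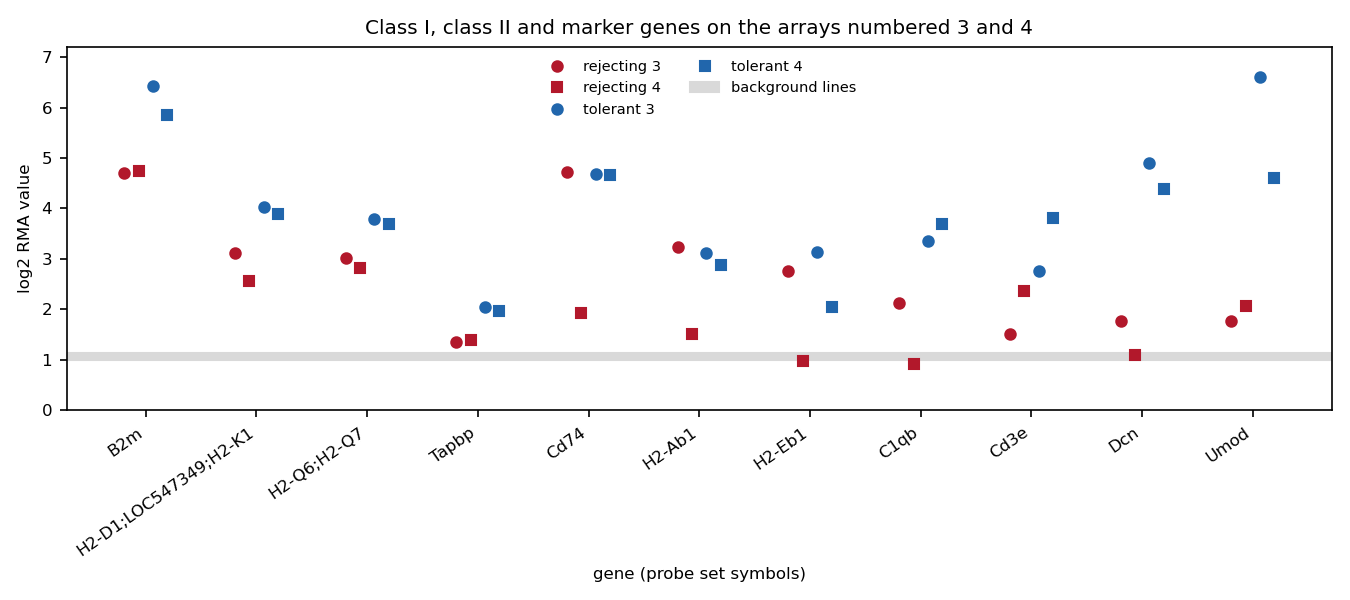
Log2 RMA value (y axis) of class I, class II and marker genes (x axis, symbols of the probe set) on the arrays numbered 3 and 4; each point is 1 array (red rejecting, blue tolerant; circles array 3, squares array 4), and the grey band spans the background lines of the 4 arrays. The 4 class I probe sets drawn here (other class I chains were ordered otherwise) have both rejecting arrays below both tolerant arrays, Cd74, H2-Ab1 and H2-Eb1 have rejecting 4 alone at the bottom, and the tubule gene Umod and the fibroblast gene Dcn have both tolerant arrays on top.

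Marker genes of other cell types stood as follows beside the class I values on the arrays numbered 3 and 4, where 2 markers, both of the kidney tubule, passed the test. For each list, the linear values (2 to the power of the RMA value) of its measured genes were summed on each array. Such a sum is carried by its highest genes and does not show that the whole list rose. Among them were Umod (6.61 and 4.59 in tolerant 3 and 4), Dcn (4.90 and 4.39) and, in tolerant 4, Cd3e (3.82). For 13 measured T cell markers of 15 the sum was 24.7 and 28.2 in rejecting 3 and 4 and 29.3 and 42.2 in tolerant 3 and 4, beside 20.9 to 22.4 on the arrays numbered 1 and 2. Cd3e, Cd5 and Thy1 lay above the line on all of the arrays numbered 3 and 4, and Thy1 also stands in the fibroblast list. Cd3d, Cd247, Cd28, Trat1 and Skap1 lay above it on no array, so the labelled cell type rests on part of its defining markers. For the 12 kidney tubule markers the sum was 21 and 21.6 in the rejecting and 142 and 61.8 in the tolerant arrays, and Slc12a3 and Calb1 rose, by 2.93 ± 0.19 and 1.64 ± 0.12 (limma adjusted p = 0.0359 and 0.044), though no probe set of the table was called without tolerant 3 or without tolerant 4. For the 10 fibroblast markers it was 34.3 and 28.5 against 72.1 and 60.8, and for 14 measured macrophage markers 33.5 and 21 against 44.1 and 50.8. For the 8 epithelial markers it was 14.1 and 15.3 against 19.2 and 16.9, and for the 10 endothelial markers 16.5 and 15.3 against 19.8 and 17.6. Above the line on no array were 4 of the 12 tubule, 4 of the 10 fibroblast and 4 of the 14 macrophage markers. The same held for 3 of the 8 epithelial and 7 of the 10 endothelial markers. The 5 measured NK cell markers and 9 measured neutrophil markers lay above the line on no array, and the B cell markers on none of this set. Class I is made by all of these cell types, and the part of the marker lists in the class I values was not tested. In such bulk RNA, fewer cells of a type and less RNA per cell cannot be told apart.

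The genes whose profiles over the 8 arrays were most like those of the members were found by the root mean square difference of profiles centred on their means, over 1850 candidate probe sets above the line on at least 4 arrays. For B2m they were Rn7sk (0.66), Tmsb4x (0.737) and Gapdh (0.747), transcripts found in most cells. On the arrays numbered 3 and 4 none of them had the order of the groups seen for B2m. Tmsb4x read 4.99 and 5.27 in the rejecting and 4.82 and 4.70 in the tolerant group, and the groups overlapped for Rn7sk and Gapdh. For H2-K1 they were Laptm5 (0.279), Gnai2 (0.308) and Lamp1 (0.319). For Tapbp they were Adam15 (0.103), Mir25 (0.127) and Dock6 (0.13), for Tap2 Vmac (0.0587), Srebf2 (0.0742) and Filip1l (0.0744), and for Psmb9 Col6a6 (0.123), Defa31 (0.135) and Rps27 (0.142). For Nlrc5 the nearest were Mir326 (0.0874) at probe set 10574100, Rab8b (0.0963) at 10574102 and H4f16 (0.14) at 10574153, so its probe sets had different neighbours. These distances share the same 8 arrays and carry no test.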

How the data were processed

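Total RNA was labelled with biotin and measured on 8 whole-transcript arrays (Affymetrix), 4 rejecting and 4 tolerant, per the labels. The values are log2 values as the authors deposited them. The submitters' processing notes name Affymetrix Expression Console and the RMA method. RMA subtracts background, makes the distributions of probe values alike between arrays and sums up each probe set's probes, so shifts of most genes together are not kept. The deposited probe set values still differed in distribution. A further quantile normalization moved the B2m difference on the arrays numbered 3 and 4 from 1.43 to 1.92. Software versions, library files and the log base were not given in the sources used here. Base 2 was taken because the highest values, 12.57 to 12.68, would exceed the scanner's range on other bases. Gene symbols came from the platform annotation, updated through the GRCm38.p6 gene table, and the 1881 probe sets with several symbols and 12457 with none were left out of the main test.

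Groups were compared with limma 3.58.1 (R 4.3.3) on the log2 values as deposited, with Benjamini-Hochberg adjustment over 21218 probe sets and a threshold of 0.05, over 8 arrays, within each array set and as an interaction. The scripts were tested on simulated data. No 2 arrays held the same values. The number of arrays limits the precision. Alternatives were leaving out each array, the replicate number or array set as a block, 3 further normalizations, a filter on dim probe sets, all probe sets, other moderation and array weights. Deviations from the group means correlated at 0.41 to 0.599 between rejecting and tolerant arrays of the same number. They correlated at 0.411 to 0.581 between different numbers of the same array set, so the shared deviation, seen in the data and not stated in the labels, follows the array set. All members were named. From each pathway list the text names up to 3 genes with the smallest p on the arrays numbered 3 and 4, further genes of known role (1 of these is not reported here), and the 3 likest profiles of each member above the line on at least 4 arrays. H2-Ab1, H2-Eb1, H2-Q1, H2-Q2, H2-Q8 and the named markers were chosen after their values were seen. The members, the lists and the split of the arrays were chosen with earlier results of these data known. Figures were drawn with matplotlib 3.10.9 in Python 3.11.15.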

Additional observations from a re-analysis of the deposited data

Results flagged for a closer look

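In 126 groups of 4 arrays, checked for the named genes, 5 arrays stood far from the other 3 of their group. Chance alone marks about 1 in 20 groups of like arrays. Each group here held arrays of both array sets, so that rate does not strictly apply. For Tap2, rejecting 1 read 0.93, below the other rejecting arrays at 1.21 to 1.25. For H2-M5, tolerant 2 read 1.04, above the others at 0.58 to 0.62, with no value above the background line. For the chaperone Canx, rejecting 4 read 1.95, above the others at 0.55 to 0.70. For the inhibitory receptor Pirb, rejecting 2 read -0.0691, below the others at 0.40 to 0.44, all under the line. For the invariant chain Cd74, rejecting 3 read 4.71, above the others at 1.55 to 1.93, though tolerant 3 and tolerant 4 both read 4.67. Among the arrays numbered 3 and 4 it was rejecting 4 that stood apart.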

How the results depend on the processing

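Under every alternative run, 0 member probe sets were called, in all 4 comparisons. Of the differences and medians recomputed, 30 changed sign, all with an array left out (27 of single probe sets and 3 of medians of the members). Another 162 with an array left out and all 147 under other settings kept their sign. Among the other settings, the replicate block returns the same difference in these balanced groups, so its signs could not change. Leaving out each array in turn, the difference over 8 arrays ranged from -0.61 to 1.21 for B2m, -0.00845 to 0.36 for Tapbp, -0.24 to 0.14 for Psmb9, 0.29 to 1.08 for H2-K1, and -0.0305 to 0.38, -0.25 to 0.27 and -0.44 to 0.14 for Nlrc5 probe sets 10574100, 10574102 and 10574153. On the arrays numbered 3 and 4 it ranged from -0.44 to 0.0382 for Psmb9 and, for the median of the members, from 0.17 to 0.32 (the highest without tolerant 3). The median over 8 arrays reached -0.00845 without tolerant 3, and that on the arrays numbered 1 and 2 was -0.00537 without rejecting 1 and -0.0143 without tolerant 1. On the arrays numbered 3 and 4, leaving out an array gave 1.13 to 1.72 for B2m, which was 1.92 after a further quantile normalization and 1.80 after cyclic loess. It gave -0.47 to -0.14 for Psmb8, -0.31 to -0.0131 for Nlrc5 10574102 and -0.74 to -0.17 for 10574153. Over 8 arrays a further quantile normalization gave 0.0138 for Tapbp, 0.16 for H2-T23 and 0.15 for Nlrc5 10574102, and cyclic loess gave 0.61 for B2m and 0.17 for 10574102. On the arrays numbered 1 and 2 the range was -0.0682 to 0.14 for Psmb8, -0.00537 to 0.27 for Tap2, -0.11 to 0.65 for H2-K1, -0.0143 to 0.0795 for Psmb9, -0.36 to 0.15 for H2-T23, and -0.18 to 0.19, -0.18 to 0.73 and -0.13 to 0.42 for the same Nlrc5 probe sets. The cause was not tested. Where a group was left with 1 array, that array was assumed to vary like the others.

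With the replicate number as a block, 0 members were called and no other call on a member changed. The adjusted p of B2m on the arrays numbered 3 and 4 was then 0.16, and over 8 arrays H2-K1 had an unadjusted p of 0.0113 and an adjusted p of 0.907 (limma). Over all probe sets, the calls on the arrays numbered 3 and 4 went from 11 to 0 without tolerant 3 or tolerant 4 or with all 35556 probe sets tested, to 48 without rejecting 4 and to 26 with trend and robust moderation. Those of the interaction went from 12 to 0 without tolerant 3, to 76 without rejecting 4 and to 0 after a further quantile normalization. Many values lie near the background lines, where a difference in level is hardly seen.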
